A study of Mus musculus with 2 samples.

Results

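Amino acid transporters carry amino acids across the plasma membrane and out of lysosomes, and the genes described here belong to the families Slc1a, Slc7a, Slc36a, Slc38a and Slc43a, with Slc3a2, the heavy chain that several Slc7a proteins need to reach the cell surface. They were taken by a rule on the gene symbol, which uses no measured values, from the named genes of a mouse expression array. The choice of these genes was made with earlier results of these data known. Of 44 such symbols in the RefSeq gene table, 43 had a probe, out of 20887 named genes in all, and 29 of the 43 were measured, that is, flagged well above background, with no saturated spot, on each of the arrays. The symbol rule also took Slc7a6os and Slc36a1os, which lie on the opposite strand of a transporter gene and do not encode transporters. The other 41 genes encode transporters or close relatives of them.

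The cells were primary pericytes from the cavernous tissue of the penis of C57BL/6 mice, grown in both conditions with 20% serum, antibiotics and human PEDF (pigment epithelium-derived factor). The exposure lasted 72 h, to normal glucose (5 mmol in the labels, which state no volume) or to high glucose (30 mmol). RNA of 3 samples was pooled in each condition and hybridised to 1 array, so every difference is between 2 pools, has no replicate check and carries no p-value. Glucose and the osmolarity of the medium differ together between these conditions and cannot be told apart; the age of the mice is not given in the sources used here.

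Transporters of these families work by different mechanisms. Slc1a proteins couple glutamate or small neutral amino acids to the sodium gradient, Slc7a proteins mostly exchange amino acids and depend on a heavy chain or, in the cationic branch, act alone, and Slc38a proteins take up glutamine and alanine with sodium. Slc36a proteins are driven by protons and several sit in the lysosome, where amino acids leaving the organelle are read by the kinase complex mTORC1. When amino acids run short, the kinase Gcn2 (Eif2ak4) phosphorylates eIF2, and the transcription factor Atf4 then raises transporter genes such as Slc7a11, Slc7a5 and Slc3a2 through an amino acid response element. Raised tonicity is known to induce Slc38a2 and carriers of organic osmolytes.

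The arrays were of similar quality. On the normal glucose array 56.3% of 59305 gene spots were well above background, on the high glucose array 57.6%, and no spot was saturated. Of 12 pericyte markers, 10 were measured, including Pdgfrb, Cspg4, Mcam and Notch3, while Kcnj8 and Vtn were not well above background. All 6 fibroblast and all 6 smooth muscle markers were measured as well, so detection of markers does not by itself identify the cells. Of 7 endothelial markers 3 were measured: Pecam1, Vwf and Kdr, the last with signals of 7379 in normal and 7075 in high glucose. Cdh5, Tek, Tie1 and Emcn were not measured. Of 6 epithelial markers Krt5, Krt14 and Krt18 were measured, and Epcam, Cdh1 and Krt8 were not. Fibroblast markers had a median log2 ratio of -0.12 with 5 of 6 lower in high glucose, beside 53.2% of all measured genes. Their summed level relative to the 75th percentile was 335 in normal and 322 in high glucose. Smooth muscle markers had 0.093 with 6 of 6 higher, beside 46.8% of all measured genes, and summed to 841 and 859. Pericyte markers summed to 153 and 149, endothelial markers to 9.78 and 9.89 and the 5 measured immune markers to 5.48 and 6.31. The part of such shifts in the transporter values was not tested.

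The transporter genes had similar levels in both pools. The log2 ratio used throughout is high over normal glucose of the processed signal after division by the 75th percentile of each array, 774 in normal and 733 in high glucose, and a positive value means higher in high glucose. Signals are quoted as pairs, the normal glucose array first. Over the 29 measured genes the log2 ratio ran from -0.36 for Slc7a3 to 0.54 for Slc1a3, with a median of 0.011, beside -0.007 over all 14176 measured genes. No transporter gene differed by 1.5-fold, where 1.62% of all measured genes were at least 1.5-fold higher and 1.19% at least 1.5-fold lower. Past 1.2-fold, 4 genes were higher (Slc1a3, Slc7a13, Slc1a6 and Slc7a11) and 2 were lower (Slc7a3 and Slc1a7), beside 6.80% and 5.51% of all measured genes. The other 23 stayed within 1.2-fold. Either way, 6 of 29 passed 1.2-fold, beside 12.3% of all measured genes. By sign alone 15 were higher and 14 lower, beside 46.8% and 53.2%. After centring on the median probe of each array, a shift of -0.0608 in the median of all genes, 10 were higher and 19 lower, so the sign of genes near 0 rests on the scaling.

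**Figure D1:**
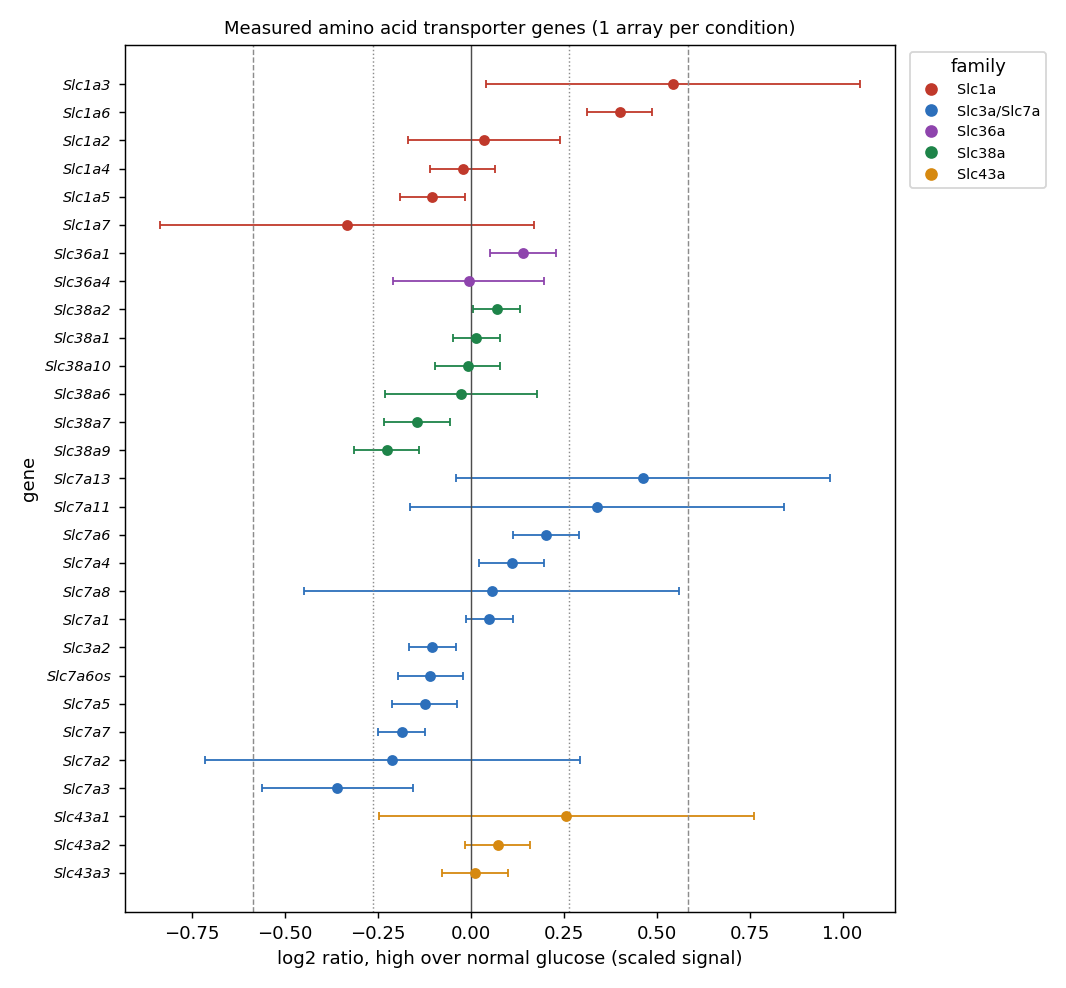
Log2 ratio of high over normal glucose (horizontal axis) for the 29 measured genes, grouped by family. Points are the brightest probe of each gene on 1 array per condition, bars are 2 SD of the ratio between repeat spots of the same signal band, and dotted and dashed lines mark 1.2-fold and 1.5-fold. All points lie between the dashed lines, and Slc1a6 has the highest ratio among genes with short bars.

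How precisely a ratio is read depends on the brightness of the spot. Probes printed 10 times give its error, as the SD of the log2 ratio between repeat spots, here called the spot SD. Its median was 0.252 for probes with a log2 mean signal under 7, 0.102 between 7 and 9, 0.044 between 9 and 12 and 0.0319 for brighter probes. This covers spot error within the arrays only, not the spread between cultures or between probes of a gene. Of the 29 transporter genes, 14 had a ratio beyond 2 such SD, 6 higher and 8 lower, where 34.6% of all measured genes did. Of the 7 dim genes, those with a log2 mean signal under 7, 4 differed by at least 1.2-fold, beside 40.4% of all genes that dim, and of the 22 brighter ones 2 did (Slc1a6 and Slc7a3), beside 7.39%.

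**Figure D2:**
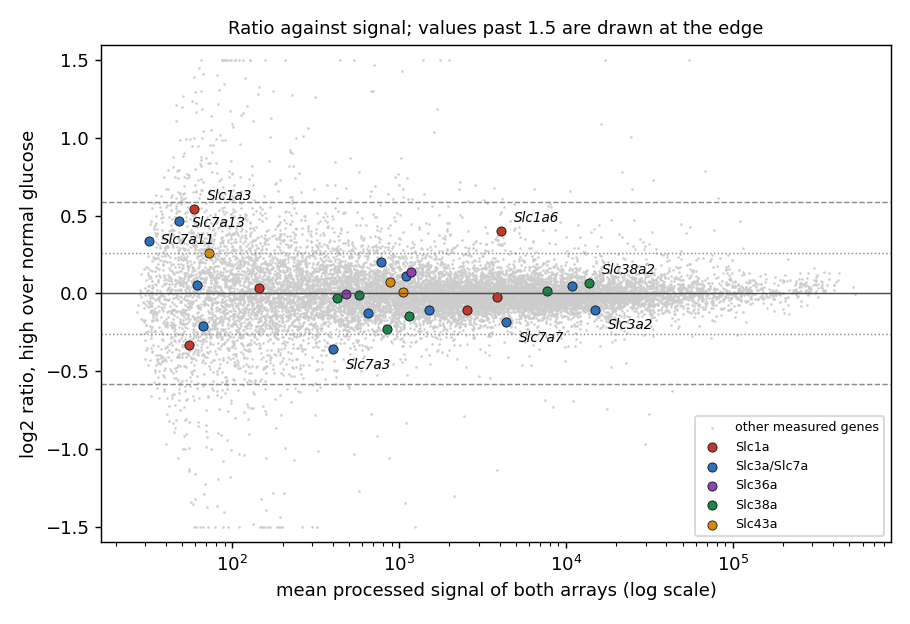
Log2 ratio of high over normal glucose against the mean processed signal of both arrays (log axis), with the transporter genes coloured by family over all 14176 measured genes in grey. Slc1a3, Slc7a13 and Slc7a11 lie at the dim end, where the grey cloud is widest, and Slc1a6 is a bright gene at the upper edge of the cloud.

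The glutamate transporters of the Slc1a family held the widest range. Slc1a6 encodes EAAT4, best known from Purkinje neurons of the cerebellum. Its signals were 3628 and 4529, 1.32-fold higher (log2 ratio 0.40), which is 9.10 times the spot SD at that signal. It was measured by 1 probe. The median pixel signal less local background gave 0.28. Slc1a3 encodes GLAST, the glutamate transporter of astrocytes. Its signals were 49.7 and 68.6, 1.46-fold higher (log2 ratio 0.54), and 2.16 times the spot SD of dim probes. Slc1a7, the retinal transporter EAAT5, was lower, with 63.2 and 47.5 (log2 ratio -0.33), which is -1.32 spot SD and within the spot error. Slc1a2, the main glial glutamate transporter GLT-1, had 147 and 143 (log2 ratio 0.036). Slc1a1, the neuronal and epithelial transporter EAAC1, was printed 10 times and was well above background on 0 spots in normal and 2 spots in high glucose, so it is not counted as measured.

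The neutral amino acid exchangers of the same family differed little. Slc1a4 (ASCT1), which carries serine and alanine, had signals of 4001.5 and 3729 (log2 ratio -0.022, -0.501 spot SD). Slc1a5 (ASCT2), the main glutamine exchanger of proliferating cells, had 2699 and 2377 (log2 ratio -0.10, -2.35 spot SD). Its second probe gave 468 and 457 with a log2 ratio of 0.04, so the 2 probes differed in sign.

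Slc3a2 and 2 of its 5 measured light chains, Slc7a5 and Slc7a7, were slightly lower in high glucose, and the other 3 had ratios above 0. Slc3a2, the heavy chain also called CD98 or 4F2hc, had signals of 15920.4 and 14017 (log2 ratio -0.10, -3.25 spot SD). Slc7a5 (LAT1), its partner for leucine and other large neutral amino acids, had 699 and 607 (log2 ratio -0.12). The second Slc7a5 probe, at signals of 130.3 and 82.7, gave -0.58, the same sign at a larger size. Slc7a7 (y+LAT1), which exports arginine and lysine in exchange for neutral amino acids, had 4757 and 3956 (log2 ratio -0.19, -5.83 spot SD). These 3 genes were between 1.075-fold and 1.138-fold lower.

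The other light chains were Slc7a6, Slc7a8 and Slc7a11. Slc7a6 (y+LAT2), which works as Slc7a7 does, had signals of 745 and 811 (log2 ratio 0.20, 4.60 spot SD). Its median pixel ratio was 0.058, at a setting with a shift of -0.1068 in the median of all genes. The dim spots next to it on the arrays had a median log2 ratio 0.23 above that of all dim spots, in the same direction, whose part in the result was not tested. The same value was -0.071 at Slc1a6, 0.005 at Slc1a3 and 0.26 at Slc7a3. Slc7a8 (LAT2), a second carrier of neutral amino acids, was printed 10 times, with signals of 62.4 and 60.5 and a log2 ratio of 0.06 ± 0.344 (SD over 10 spots of 1 probe, no biological replicates). Slc7a11 encodes xCT, the cystine-glutamate exchanger that feeds glutathione synthesis. It was at the edge of detection, with signals of 28.7 and 34.3 (log2 ratio 0.34, 1.35 spot SD), and the median pixel signal gave 0.008. Slc7a13, an aspartate and glutamate carrier of the kidney, had 41.6 and 54.3 (log2 ratio 0.46, 1.84 spot SD). The ratios of these last 3 dim genes were within 2 SD of the spot error.

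Among the cationic transporters, which bring in arginine, the substrate of nitric oxide synthase, the bright gene was level and the dimmer ones lower. Slc7a1 (CAT1), the widely expressed form, had signals of 11022 and 10796 (log2 ratio 0.05). Slc7a3 (CAT3) had 461 and 340.0, 1.28-fold lower in high glucose (log2 ratio -0.36, -3.51 spot SD), and it kept a ratio between -0.50 and -0.35 under 13 alternative settings. Slc7a2 (CAT2), the form induced in activated macrophages, had 73.2 and 59.8 (log2 ratio -0.21), within the spot error. Slc7a4, a relative of these transporters with no settled substrate, had 1083 and 1106 (log2 ratio 0.11). Slc7a6os, the opposite-strand neighbour of Slc7a6 that encodes a factor for nuclear import of RNA polymerase II, had 1602 and 1405 (log2 ratio -0.11).

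The 6 measured sodium-coupled Slc38a genes were all within 1.2-fold, where 12.3% of all measured genes passed it either way. Slc38a2 (SNAT2), a glutamine and alanine carrier known to be induced by amino acid shortage and by raised tonicity, had signals of 13800 and 13698 (log2 ratio 0.069). Slc38a1 (SNAT1), a close relative, had 7915 and 7566 (log2 ratio 0.015), and its other 2 measured probes gave -0.017 and 0.25. Slc38a6 and Slc38a10 had -0.027 and -0.0086. The pair below 0 beyond the spot error comprised the lysosomal genes. Slc38a9, the lysosomal arginine sensor that signals to mTORC1, had 937 and 758 (log2 ratio -0.23, -5.15 spot SD), and its 2 other probes gave -0.05 and -0.11. Slc38a7 (SNAT7), which exports glutamine from the lysosome, had 1229.8 and 1052 (log2 ratio -0.145, -3.30 spot SD).

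The proton-coupled and facilitative families were nearly level. Slc36a1 (PAT1), a lysosomal carrier of small neutral amino acids, had signals of 1150.0 and 1199.6 (log2 ratio 0.14, 3.20 spot SD), and its second, dim probe gave -0.11. Slc36a4, a high-affinity relative, had 494 and 465 (log2 ratio -0.006), with 0.33 from its second, dim probe. Slc43a1 (LAT3), a carrier of branched-chain amino acids, had 68.4 and 77.3 (log2 ratio 0.26, 1.02 spot SD). Slc43a2 (LAT4), its relative, had 888 and 883 (log2 ratio 0.073). Slc43a3, which carries purine nucleobases and is in the family by sequence, had 1080.0 and 1029.7 (log2 ratio 0.011).

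Second probes limited what the brightest probe shows. Of 6 transporter genes with a second measured probe (Slc1a5, Slc7a5, Slc36a1, Slc36a4, Slc38a1 and Slc38a9), 2 kept the sign in the second probe, Slc7a5 and Slc38a9, and the median difference between both ratios was 0.215. Over 3632 genes with a second measured probe the median difference was 0.088, and 2151 kept the sign.

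**Figure D3:**
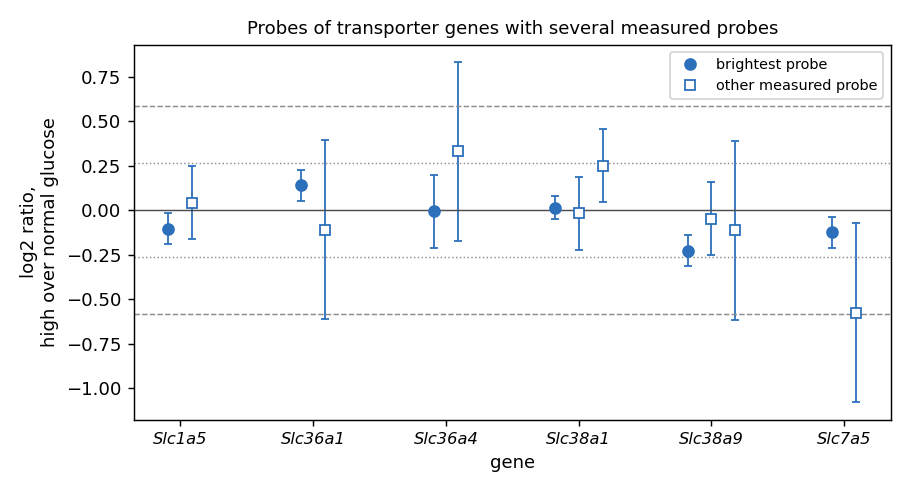
Log2 ratio of high over normal glucose for every measured probe of the 6 genes that have more than 1, with the brightest probe filled and other probes open. Bars are 2 SD of repeat spots in the signal band, and dotted and dashed lines mark 1.2-fold and 1.5-fold. Slc7a5 and Slc38a9 lie below 0 with all their probes, while the probes of the other 4 genes lie on both sides of 0.

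The remaining 14 genes were well above background on neither array and give no ratio. They were Slc1a1, Slc7a9, Slc7a10, Slc7a12, Slc7a14, Slc7a15, Slc36a2, Slc36a3, Slc36a1os, Slc38a3, Slc38a4, Slc38a5, Slc38a8 and Slc38a11. Their signals lay between 5.91 and 20.3 in normal and between 5.32 and 21.6 in high glucose, where the dimmest spot called well above background had 26.9 and 24.0. Slc38a3 and Slc38a5, glutamine carriers best known from liver and brain, and Slc7a9, the kidney cystine carrier, are among them.

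The amino acid response element was looked for in promoters because it ties these genes to Atf4. Promoter sequences from RefSeq (build GRCm38.p6, 250 bases before to 50 after each annotated start) were at hand for 32 of the 43 genes, as 43 sequences. The core TGATGNAA, searched on both strands, was found in 4 of these 43 sequences (9.3%), from Slc7a11, Slc7a7 and Slc1a4, beside 3.97% of all 32851 promoters of the same length. The antioxidant response element core TGACNNNGC was found in 16.3% beside 12.4%, and the E-box CACGTG in 16.3% beside 7.15%. Overlapping sequences of Slc7a7 share a TGATGNAA site and those of Slc7a6 a TGACNNNGC site, so such a site is counted more than once. By gene, TGATGNAA was in 3 of 32, TGACNNNGC in 6 of 32 and CACGTG in 7 of 32, with no share by gene at hand for all promoters. Some of these genes were not measured: Slc36a1os with TGACNNNGC, and Slc7a14 and Slc38a5 with CACGTG. A match is a description of the letters and not a tested site. The stretches with the Atf4 core are shown because the ratios of the 3 genes that hold it had different signs. The core, or its reverse complement, is in capitals, each line runs 5′ to 3′ on the gene's strand, and all 3 genes are on the minus strand.
Slc7a11, chr3:50443661-50443690, 66 bases before the start: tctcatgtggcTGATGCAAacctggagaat
Slc7a11, chr3:50443642-50443671, 47 bases before the start: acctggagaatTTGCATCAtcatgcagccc
Slc7a7, chr14:54417923-54417952, 243 bases before 1 of its starts: tagaagcTGATGCAAcagcttccccgaggg
Slc7a7, chr14:54418067-54418096, 141 bases before another start: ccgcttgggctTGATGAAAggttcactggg
Slc1a4, chr11:20332699-20332728, 4 bases before the start: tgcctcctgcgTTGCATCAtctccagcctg
The Slc7a7 site 243 bases before 1 start also lies 1 base before the other start, the one used in the line at 141 bases. Slc7a11 holds the core on both strands within a short stretch. In these pools the log2 ratio of Slc7a11 was 0.34 at the edge of detection, that of Slc7a7 -0.19 and that of Slc1a4 -0.022.

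Promoters were also read for the 4 measured genes with the largest differences, and RefSeq sequences were at hand for Slc1a3 and Slc1a6. The 250 bases before each start follow, 5′ to 3′ on the gene's strand, with matches to the same 3 motifs in capitals. Slc1a6 (plus strand) has an E-box 32 bases before its start in a stretch rich in G and C, and Slc1a3 (minus strand) has no match in this window.
Slc1a6, chr10:78780246-78780495: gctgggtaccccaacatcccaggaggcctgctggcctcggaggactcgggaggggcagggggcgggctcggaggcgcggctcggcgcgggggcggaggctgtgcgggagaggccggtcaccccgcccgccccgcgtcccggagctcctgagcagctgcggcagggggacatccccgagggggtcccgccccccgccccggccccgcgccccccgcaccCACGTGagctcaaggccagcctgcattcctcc
Slc1a3, chr15:8710808-8711057: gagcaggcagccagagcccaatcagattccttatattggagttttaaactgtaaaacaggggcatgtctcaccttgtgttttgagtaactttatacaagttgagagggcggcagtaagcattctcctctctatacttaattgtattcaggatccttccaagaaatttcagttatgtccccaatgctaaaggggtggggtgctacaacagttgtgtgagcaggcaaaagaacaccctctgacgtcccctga

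Genes of the amino acid response, Atf4 itself among them, had a median log2 ratio of -0.13. All 17 listed were measured, 11 lower and 6 higher, beside 53.2% and 46.8% of all measured genes. None differed by 1.5-fold, where 1.62% of all measured genes were at least 1.5-fold higher and 1.19% at least 1.5-fold lower. At least 1.2-fold lower were 3, beside 5.51% of all measured genes. Trib3, a pseudokinase induced by Atf4, had signals of 11789 and 8833 (log2 ratio -0.34). Vldlr, a lipoprotein receptor, had 4816 and 3663 (log2 ratio -0.32), and its second probe gave -0.37. Ddit3 (CHOP), a stress transcription factor, had 8496 and 6624 (log2 ratio -0.28). Atf4, the transcription factor of the response, had 0.09 and -0.05 from its 2 probes. In the Gcn2 and eIF2 branch 10 of 10 genes were within 1.2-fold by their brightest probe, with a median of 0.036. Over all measured genes 12.3% passed 1.2-fold either way, so a list of this size with none past it is not unusual. Impact, an inhibitor of Gcn2 activation, had 0.11 from its brightest probe and 0.35 from its second. The eIF2 kinase Eif2ak1 had 0.11 and the phosphatase subunit Ppp1r15b 0.06. The 20 cytosolic aminoacyl-tRNA synthetases had a median of -0.018, with Yars at 0.27, Rars at -0.26 and Farsb at -0.11.

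Genes of amino acid sensing at the lysosome were level as a list but held 1 large difference. Of 37 listed genes, 36 were measured, with a median log2 ratio of 0.001, 4 at least 1.2-fold higher and 1 at least 1.2-fold lower, beside 6.80% and 5.51% of all measured genes. Lamtor2, a subunit of the Ragulator complex that anchors the Rag GTPases and mTORC1 at the lysosome, had signals of 10826 and 21771, 2.13-fold higher (log2 ratio 1.09), beside 0.501% of all measured genes at least 2-fold higher. It rested on 1 measured probe and kept a log2 ratio between 0.978 and 1.096 under 13 alternative settings. Castor2, a relative of the arginine sensor Castor1, had 6780.4 and 9423 (log2 ratio 0.55). Akt1s1 (PRAS40), an mTORC1 inhibitor, had 827 and 1119.9 (log2 ratio 0.52). The dim genes past 1.2-fold were Rragd, a Rag GTPase, with 69.5 and 89.9 (log2 ratio 0.45), and Tsc2, a subunit of the complex that restrains mTORC1, with 110.7 and 81.3 (log2 ratio -0.36).

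Enzymes that make or use amino acids were mostly level, with 27 of 30 listed genes measured and a median log2 ratio of -0.031. By sign 19 were lower and 8 higher, beside 53.2% and 46.8% of all measured genes. Of the 27 enzymes, 2 were at least 1.5-fold lower and none was as much higher, beside 1.19% and 1.62% of all measured genes. Ass1, argininosuccinate synthase, which rebuilds arginine from citrulline, had signals of 53347 and 32645, with a log2 ratio of -0.63. Its second probe gave 25518 and 14411 (log2 ratio -0.74). Shmt1, the cytosolic serine hydroxymethyltransferase, had 205 and 113 (log2 ratio -0.78), but its second, dim probe gave 0.19. Mthfd2, a mitochondrial folate enzyme, had 2924 and 2211 (log2 ratio -0.32).

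Genes known to respond to raised tonicity were higher in high glucose in all 10 measured cases, with a median log2 ratio of 0.40, where 46.8% of all measured genes were higher. This list was chosen with earlier results of these data known, so its counts describe the list and are no independent support. Of the 10, 2 were at least 1.5-fold higher, beside 1.62% of all measured genes. Slc6a12, the betaine and GABA carrier BGT1, had signals of 926 and 1333, 1.52-fold higher (log2 ratio 0.60). Aqp1, a water channel, had 2136 and 3056 (log2 ratio 0.60). Slc5a3, the myo-inositol carrier, had 3441 and 4689 (log2 ratio 0.53), and its second probe, printed 10 times, gave 0.58. The amino acid carriers on this list differed less: the taurine carrier Slc6a6 had 8612 and 9149 (log2 ratio 0.17) and Slc38a2, as given above, 0.069. The transcription factor Nfat5, which drives the response, had 0.048. The other genes past 1.2-fold were Akr1b3, the aldose reductase that makes sorbitol, at 0.39, and the chaperones Hspa4l at 0.46 and Hspa1a at 0.42.

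Amino acid transporters of other families were mostly level as well. Of 31 listed, 30 had a probe and 20 were measured, with a median log2 ratio of 0.052. None passed 1.5-fold, where 1.62% of all measured genes were at least 1.5-fold higher and 1.19% at least 1.5-fold lower. Slc6a17, a vesicular carrier of neutral amino acids in neurons, had signals of 309 and 204 (log2 ratio -0.52). Slc15a3, a lysosomal peptide and histidine carrier, had 70.7 and 87.4 (log2 ratio 0.39). Slc17a8, a vesicular glutamate carrier, had 44.5 and 50.4 (log2 ratio 0.26).

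**Figure D4:**
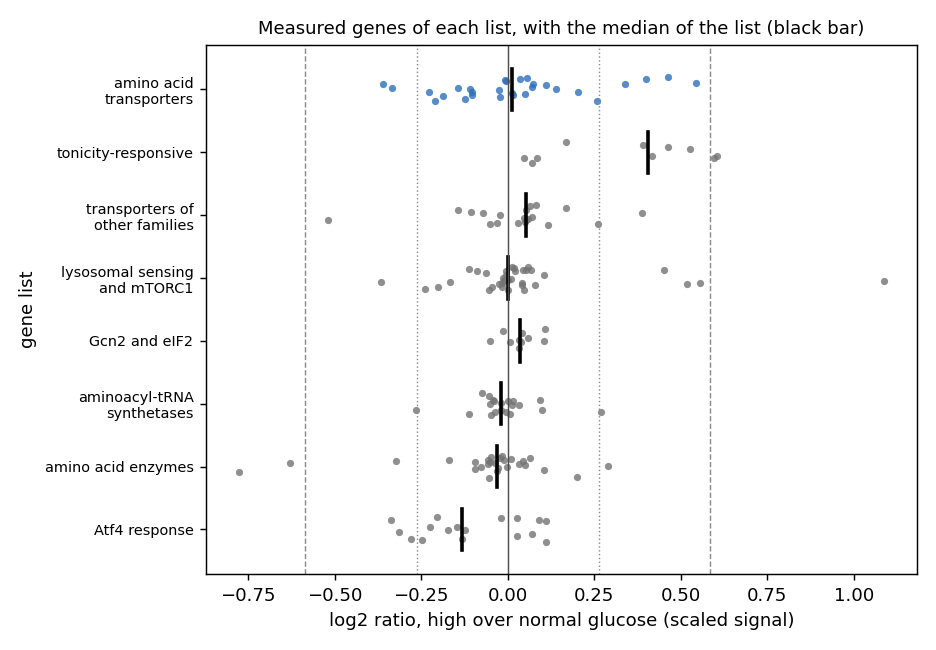
Log2 ratio of high over normal glucose for each measured gene of the transporter families (blue) and of 7 related gene lists (grey), with the median of each list as a black bar and dotted and dashed lines at 1.2-fold and 1.5-fold. The transporter genes centre on 0.011, the tonicity-responsive genes all lie above 0 and the Atf4 response genes have the lowest median at -0.13. The lists were chosen with earlier results of these data known.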

How the data were processed

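Linear intensity values were deposited as scanner files, which per the file headers came from 1-colour scans and Feature Extraction 11.5.1.1; in the submitters' processing notes the version is 9.3.2.1. The processed signal is an intensity less background, and the 0 or 1 spot flags come from the same software, per the file headers. The same intensity was found in the value table of the authors for 55249 of 55249 probes with 1 spot (relative tolerance 0.0001), with column medians of 49.6 and 48.9.

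The log2 signals of the spots of a probe were averaged, less the 75th percentile of that array (55681 probes). Through RefSeq accessions, 27509 probes matched 1 symbol and 28172 none. The probe with the highest mean level stood for a gene. A probe was measured where at least 0.5 of its spots were well above background on both arrays. Unmeasured probes have no ratio. Differences were counted at 1.5-fold, and at 1.2-fold and 2-fold. With 1 array a condition, precision is limited by their number. Dim neighbours are spots up to 2 positions away in the grid and not flagged well above background.

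The genes and lists were chosen with earlier results of these data known. All measured transporter genes are reported, and in each other list the 3 with the largest absolute log2 ratio, with further genes chosen after their values were seen. Alternatives covered scaling, background, dim filters, spot flags, probe choice and the value table. Counting was tested on simulated data. Python 3.11.15, R 4.3.3 and limma 3.58.1 were used.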

Additional observations from a re-analysis of the deposited data

How the results depend on the processing

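No transporter gene was at least 1.5-fold higher under any of the 14 alternatives. The count at least 1.5-fold lower, 0, became 3 with no filter on dim probes (Slc38a3, Slc38a8 and Slc7a15, all near the floor) and 1 with positive and significant signal in place of well above background. The 1.2-fold counts, added after the data were seen, were 4 higher and 2 lower. They became 2 and 1 with normexp (offset 50, run on median pixel signals, the mean signals not being used here), and 1 and 1 both with dim genes (log2 mean signal under 7) left out and with the second brightest probe, which only 6 genes have. The lower count became 4 with median centring, 5 with median pixel signals and 5 with no dim filter. The median ratio, 0.011, became -0.0497 with median centring and -0.098 with median pixel signals, with shifts of -0.0608 and -0.1068 in the median of all genes. Of 29 transporter genes, 21 kept their sign in every alternative that gave a value, and 323 of 375 alternative ratios moved by less than 1 spot SD. The median of the tonicity-responsive genes stayed between 0.32 and 0.52 and that of the Atf4 response genes between -0.24 and -0.047. Shmt1, at -0.78, turned to 0.19 with its second probe. Dim signals set the limit: for dim genes the spot SD was 0.252. No paired analysis was possible because each condition has 1 array.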

Other observations

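Among all other solute carriers 221 of 328 were measured, with 2 at least 1.5-fold higher and 7 at least 1.5-fold lower in high glucose, beside 1.62% and 1.19% of all measured genes. Some of these genes are named here, chosen after their values were seen, and signals are quoted with the normal glucose array first. Slc8a1, a sodium-calcium exchanger, was 3.74-fold lower, with 249 and 63.0 (log2 ratio -1.90). Slc6a12, described with the tonicity-responsive genes, was 1.52-fold higher. Slc18a3, the vesicular acetylcholine transporter, was 1.66-fold lower, with 158 and 89.9. Slc23a3, an orphan relative of the ascorbate carriers, was 1.65-fold lower, with 195 and 112. Slc9a9, an endosomal sodium-proton exchanger, was 1.78-fold lower, with 71.3 and 37.98. Slc24a2, a potassium-dependent sodium-calcium exchanger, was 1.54-fold lower, with 48.5 and 29.7. Slc35g3 was 1.88-fold higher, with 54.7 and 97.2, and Slc28a3, a nucleoside carrier, 1.51-fold lower, with 63.8 and 39.9. All but Slc6a12 of the genes named here had a signal below 250 on both arrays.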
